A study of Mus musculus with 6 samples.

Results

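The 10 genes described here carry out MHC class I antigen presentation: the class I heavy chains H2-K1 and H2-D1, the light chain B2m, the peptide transporter subunits Tap1 and Tap2, the loading complex genes Tapbp, Calr and Pdia3, and the immunoproteasome subunits Psmb8 and Psmb9. They were taken by gene name from a deposited RNA-seq table of 54532 genes, in which each name occurred once. The cells were brain endothelial cells of Df(h22q11)/+ mice, which are heterozygous for an engineered deletion modelling human 22q11.2 deletion syndrome. All 6 libraries carry that deletion, and wild-type mice were not analysed here. The untreated group (libraries F_1, F_2 and M_1) received irradiated base chow, and the bezafibrate group (libraries F_1, M_1 and M_2) received chow enriched with 0.5% bezafibrate, a lipid-lowering fibrate and PPAR agonist, in both cases for 4 weeks. The mice were 12 to 16 weeks old, F and M stand for female and male, and each library is a pool of 3 brains of a single sex. The sort kept live cells that were CD31-positive, CD45-negative and PDGFRb-negative, so that leukocytes and pericytes should be few. The design compares bezafibrate with base chow, here in the levels of the class I genes.

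Class I molecules show short peptides from the cell's own cytosol to CD8 T cells. The proteasome cuts the peptides, TAP pumps them into the endoplasmic reticulum, and a loading complex of tapasin, calreticulin and ERp57 holds an empty heavy chain with its light chain beta-2 microglobulin until a fitting peptide is bound. Brain endothelial cells carry class I molecules, and interferons raise many of these genes together.

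The libraries held 16858130 to 20228619 summed reads and 11060 to 11387 genes at an FPKM (sequenced fragments relative to gene length and library size) of at least 1. All 10 class I genes passed the filter on low values, which asked for 3 or more libraries at or above an FPKM of 1 and left 11277 genes. Behind each of their values stood 252 to 27486 reads. On the first principal component (39.3% of the variance), untreated M_1 (30.3) and bezafibrate F_1 (24.4) lay at the upper end. Untreated F_2 lay in between, at 1.62, and the others ran from -22.6 to -14.0. Summed reads divided by the library size used for the FPKM ran from 0.950 to 1.09 in untreated libraries and from 0.888 to 1.06 in bezafibrate libraries, so values were also examined after rescaling to TPM (the same values scaled to an equal total in each library). Xist and the Y-linked gene Ddx3y matched the labelled sex in 6 of 6 libraries.

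Of the 10 genes, 7 lie in the MHC on chromosome 17 (GRCm38 positions from the deposited table). Tapbp (33915899 to 33929288, plus strand) and H2-K1 (33996017 to 34000333, minus strand) are separated by 66.7 kb. Next follow Psmb9 (34181988 to 34187764, minus strand), Tap1 (34187553 to 34197225, plus strand), Psmb8 (34197721 to 34201454, plus strand) and Tap2 (34203527 to 34216321, plus strand), which together span 34.3 kb. H2-D1 (35262730 to 35267499, plus strand) lies farthest along, and Tapbp to H2-D1 covers 1.35 Mb. Outside the MHC, Pdia3 (121413775 to 121438687) and B2m (122147686 to 122153083) are on the plus strand of chromosome 2, and Calr (84841850 to 84846934) is on the minus strand of chromosome 8.

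RefSeq promoter windows, with 250 bases before and 50 after the start site on GRCm38.p6, were found for 9 of the 10 genes, all but Tap2. H2-K1 had 2 windows, and the one with the more upstream start site was used, so its positions depend on that choice. The upstream 250 bases are shown for the heavy chains and B2m, which shared their highest library, with matches to the searched motifs in capitals. They are chr17:34000348-34000597 (minus strand) for H2-K1, chr17:35262844-35263093 (plus strand) for H2-D1 and chr2:122147437-122147686 (plus strand) for B2m.
H2-K1: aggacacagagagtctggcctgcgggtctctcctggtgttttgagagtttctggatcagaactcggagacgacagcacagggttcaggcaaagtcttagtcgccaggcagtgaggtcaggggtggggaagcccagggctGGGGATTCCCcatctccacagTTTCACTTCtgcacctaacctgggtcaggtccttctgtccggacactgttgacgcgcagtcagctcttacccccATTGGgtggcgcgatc
H2-D1: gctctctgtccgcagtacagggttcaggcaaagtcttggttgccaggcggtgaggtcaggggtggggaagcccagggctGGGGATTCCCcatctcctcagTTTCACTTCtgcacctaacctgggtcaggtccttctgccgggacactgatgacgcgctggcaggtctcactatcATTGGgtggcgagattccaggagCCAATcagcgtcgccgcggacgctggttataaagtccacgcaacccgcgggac
B2m: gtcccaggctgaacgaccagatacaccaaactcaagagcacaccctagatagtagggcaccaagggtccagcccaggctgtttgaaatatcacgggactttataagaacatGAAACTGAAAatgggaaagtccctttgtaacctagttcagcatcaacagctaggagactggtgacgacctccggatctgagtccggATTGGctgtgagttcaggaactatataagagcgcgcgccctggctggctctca
In H2-K1 and H2-D1 the first run of capitals is GGGGATTCCC, a match to an NF-kappaB motif (GGGNNTTCCC) at -111 to -102 and -171 to -162 from the start site. The next is TTTCACTTC, the reverse complement of a loose IRF motif (GAANNGAAA) at -90 to -82 and -150 to -142. Both class I windows also hold CCAAT boxes, read as CCAAT or ATTGG. In H2-K1 a further one at 8 to 12 lies after the start site used and is not shown. The windows of H2-K1 and H2-D1 were identical at 211 of 240 aligned bases (87.9%). B2m instead holds GAAACTGAAA at -139 to -130, a match to the interferon-stimulated element (GAAANNGAAA), and an ATTGG. Motifs were searched on both strands, and of 32851 RefSeq windows of this length, 1.75% held the NF-kappaB motif, 3.44% the interferon-stimulated element, 7.52% the loose IRF motif and 37.4% a CCAAT box. The loose IRF motif was chosen after the sequences had been read.

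Calr and Pdia3 are shown as the 2 class I genes whose treatment groups did not overlap in the deposited scale. Of all genes tested, 4.13% were separate in the same direction, lower with bezafibrate. In TPM and under quantile scaling 0 of the class I genes were separate. The stretches are chr8:84846932-84847181 (minus strand) and chr2:121413652-121413901 (plus strand).
Calr: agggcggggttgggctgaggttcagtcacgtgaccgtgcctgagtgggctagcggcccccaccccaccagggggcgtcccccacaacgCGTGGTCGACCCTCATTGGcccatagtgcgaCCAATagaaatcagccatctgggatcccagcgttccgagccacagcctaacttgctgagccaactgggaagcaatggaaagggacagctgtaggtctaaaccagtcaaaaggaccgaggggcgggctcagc
Pdia3: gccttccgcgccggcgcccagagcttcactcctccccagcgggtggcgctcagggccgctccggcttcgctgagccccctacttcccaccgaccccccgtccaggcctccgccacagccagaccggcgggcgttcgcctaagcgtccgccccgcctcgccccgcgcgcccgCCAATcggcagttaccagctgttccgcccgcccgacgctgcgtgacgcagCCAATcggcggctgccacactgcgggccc
In Calr the longest run of capitals, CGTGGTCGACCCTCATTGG at -162 to -144, is the reverse complement of the ER stress element (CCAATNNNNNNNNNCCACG), which was found in 0.119% of windows, and its last bases are also a CCAAT box. A further CCAAT box begins at -131. Pdia3 holds CCAAT boxes at -79 and -29 and no match to the ER stress element in this window. Of the remaining windows, Tapbp held 2 CCAAT boxes and Psmb8 held no match. Tap1 and Psmb9 held 1 each, which is the same box read from opposite strands. The RefSeq start sites of Tap1 and Psmb9 face away from each other at a distance of 226 bases, so that their windows share 275 bases.

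Levels of the class I genes covered a wide range, and their order hardly varied. B2m, the light chain shared by all classical class I molecules, was highest, at a mean of 1222 FPKM over the 6 libraries, above 99.8% of the genes tested. H2-D1 (449 FPKM, above 99.3%) and H2-K1 (264 FPKM, above 98.7%) followed. The chaperones Calr (139.9 FPKM) and Pdia3 (111 FPKM) and the tapasin gene Tapbp (63.6 FPKM) came next. Tap2 (20.5 FPKM), Psmb8 (11.3 FPKM), Tap1 (8.50 FPKM) and Psmb9 (5.96 FPKM, above 50.1% of the genes tested) were lowest. Each neighbouring pair kept this order in 6 of 6 libraries. Ranges over libraries overlapped only between Calr and Pdia3 and between Tap1 and Psmb9. Levels compared between genes depend on the gene length behind the FPKM. For Tap1 (5476 bases), Tap2 (3781) and B2m (860) this length equalled the exon bases of all isoforms together. The order under other lengths was not tested.

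**Figure D1:**
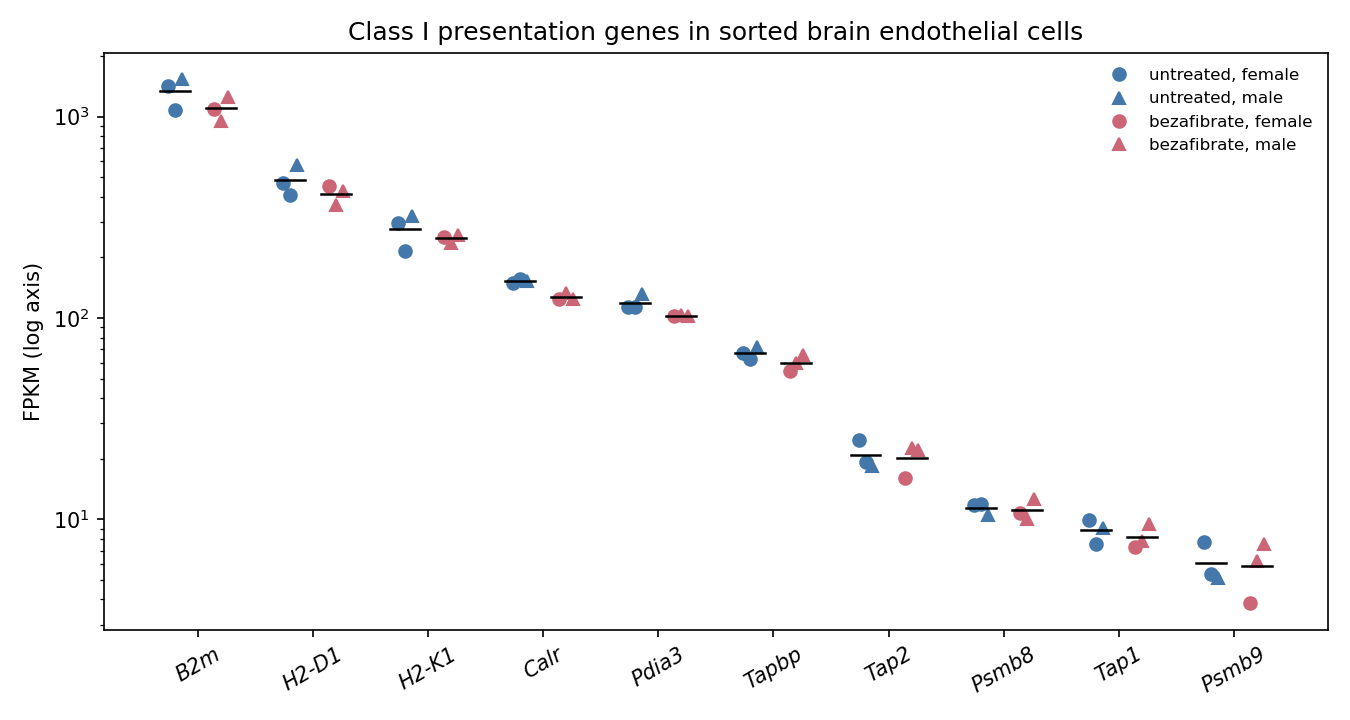
Deposited FPKM (log axis) of the 10 class I genes, ordered by mean; each point is a library, blue for untreated and red for bezafibrate, circles for female and triangles for male pools, with a bar at the mean of the 3 libraries of a group. B2m lies between 947 and 1535 FPKM and Psmb9 between 3.83 and 7.75, and the groups are separate only for Calr and Pdia3.

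Bezafibrate changed none of the 10 class I genes past the threshold. Each had a lower mean of log2(FPKM + 1) with bezafibrate, with log2 differences (bezafibrate minus untreated) between -0.28 for B2m and -0.03 for Psmb8, but after rescaling to TPM 6 were below 0 and 4 above, and under quantile scaling 8 below and 2 above. Of all genes tested, 51.8% had a difference below 0 in the deposited scale and 31.7% in TPM. By limma with Benjamini-Hochberg adjustment over 11277 genes, each class I gene had an adjusted p of 0.999, and 0 lay at an unadjusted p under 0.05. Over all genes 0.00887% were called at an adjusted p under 0.05 and 4.19% had an unadjusted p under 0.05. A voom fit on recovered reads also called 0 of the 10. The smallest unadjusted p was that of Calr, 0.0706, which ranked 670 among all genes. Standard errors of the class I genes ran from 0.123 to 0.246, against a median of 0.191 over all genes.

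Rescaling to TPM moved the median difference of all genes from -0.01 to 0.10, so the class I genes are also given relative to it. Their median was -0.15 in the deposited scale, and its distance from the median of all genes was -0.14. The quartiles over all genes were -0.14 and 0.13. In TPM the class I median was -0.03, at a distance of -0.13. All 10 lay below the median of all genes in both scales and in the voom fit, and 6 to 10 did so over the 16 other settings. In bulk RNA, fewer cells of a type and less RNA per cell cannot be told apart.

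**Figure D2:**
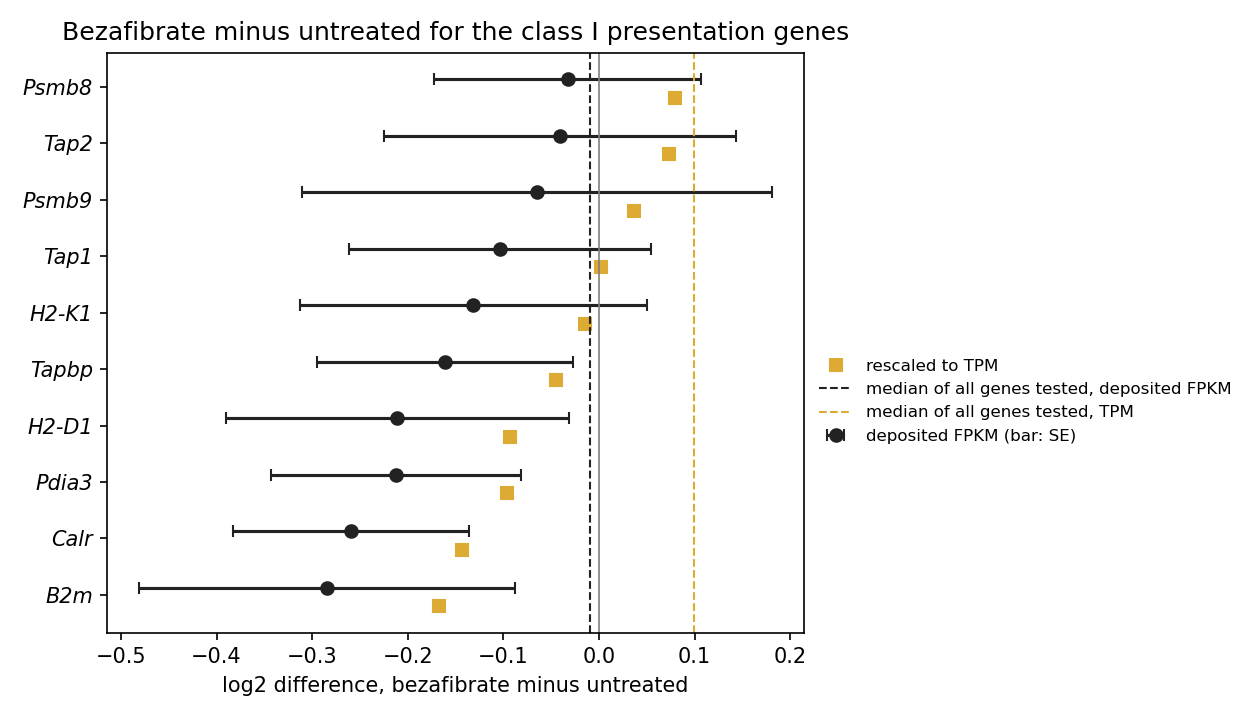
Difference in log2(FPKM + 1), bezafibrate minus untreated, for each class I gene; black points are the deposited FPKM with bars of 1 SE, orange squares the same after rescaling to TPM, and dashed lines the median of all genes tested in each scale. All points lie left of their dashed line, and in TPM those of Tap1, Tap2, Psmb8 and Psmb9 lie above 0.

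The heavy chains and B2m, which together form the class I molecule, had their highest value in untreated M_1. Here and below, single values are listed in the order F_1, F_2, M_1 for the untreated group and F_1, M_1, M_2 for the bezafibrate group. H2-K1 (ENSMUSG00000061232) stood at 297, 214 and 321 FPKM untreated and at 253, 236 and 260 with bezafibrate. The untreated libraries enclose all bezafibrate values, and untreated F_2 was the lowest of the 6. Means were 278 ± 56.2 and 249.7 ± 12.2 FPKM (SD, n = 3 each). The log2 difference of -0.13 (SE 0.181) was 0.03 under quantile scaling and 0.04 with array weights. H2-D1 (ENSMUSG00000073411) stood at 469, 406 and 574 FPKM untreated and at 455, 363 and 427 with bezafibrate. The lowest value was bezafibrate M_1, and the groups overlapped. Its means were 483 ± 84.7 and 415 ± 47.2 FPKM, a log2 difference of -0.21 (SE 0.179), and of -0.09 in TPM.

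B2m (ENSMUSG00000060802) had 1422, 1079 and 1535 FPKM untreated and 1096, 947 and 1255 with bezafibrate. Untreated F_1 and M_1 exceeded every bezafibrate library, whereas untreated F_2 lay among them. The means of 1345 ± 238 and 1099.5 ± 154 FPKM gave the lowest log2 difference of the 10 genes, -0.28 (SE 0.197), or -0.17 in TPM. Summed heavy chain FPKM over that of B2m was 0.539, 0.575 and 0.583 untreated and 0.646, 0.633 and 0.547 with bezafibrate. This ratio overlapped between groups, with a difference of 0.0429 (two-sided exact permutation p = 0.3, where 3 against 3 cannot go below 0.1). The ratio of H2-D1 to H2-K1 ran from 1.54 to 1.90 over the libraries (exact permutation p = 0.5). The size of these differences rested on single libraries. Without untreated M_1, the log2 differences of H2-K1, H2-D1 and B2m were -0.02, -0.08 and -0.18. Without untreated F_2 they were instead -0.31, -0.33 and -0.44. H2-K1 was also at -0.07 without untreated F_1, and H2-D1 and B2m were at -0.12 and -0.18 without bezafibrate M_1.

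A read of a heavy chain can also fit other class I genes of near-identical sequence. Of all 75-base stretches in H2-K1 transcripts, 3.10% also occurred in another gene on the same strand, most often H2-Q10 (2.38%), and in H2-D1 5.40% did, most often H2-Q1 (4.25%). B2m, Tap1, Tap2, Calr, Pdia3, Psmb8 and Psmb9 shared none on the same strand, and Tapbp shared 1.10%. On the opposite strand Tapbp shared 17.5%, Psmb8 9.97%, Tap2 8.27%, Psmb9 3.44%, Tap1 2.40% and H2-D1 0.154%. Reads of those stretches are ambiguous too if counting did not use strand. H2-Q10 and H2-Q1 did not pass the filter on low values, but other partners did. H2-Q7 held 1.28% of the stretches of H2-K1 and 2.66% of those of H2-D1, H2-T23 held 2.74% of those of H2-D1, and H2-D1 itself held 0.642% of those of H2-K1.

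The transporter genes varied more between libraries than between groups. Tap1 (ENSMUSG00000037321), one arm of the peptide pump, stood at 9.94, 7.58 and 9.02 FPKM untreated and at 7.26, 7.79 and 9.43 with bezafibrate. High and low values occurred in both groups. Means were 8.85 ± 1.18 and 8.16 ± 1.13 FPKM, with a log2 difference of -0.10 (SE 0.158) that was 0.0016 in TPM. It was -0.02 without untreated F_1 and -0.03 without bezafibrate F_1, and -0.20 without either untreated F_2 or bezafibrate M_2. Tap2 (ENSMUSG00000024339), which encodes the other arm, had 24.6, 19.2 and 18.4 FPKM untreated and 16.0, 22.7 and 22.0 with bezafibrate. Bezafibrate F_1 was lowest and untreated F_1 highest, and both bezafibrate male libraries exceeded the untreated male library. Means of 20.8 ± 3.38 and 20.2 ± 3.66 FPKM gave -0.04 (SE 0.184), which was 0.07 in TPM and 0.11 without bezafibrate F_1. Tap2 over Tap1 lay between 2.04 and 2.91 (exact permutation p = 0.7).

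Tapbp (ENSMUSG00000024308), whose product tapasin bridges TAP to the empty heavy chain, had 67.1, 62.8 and 71.5 FPKM untreated and 54.8, 59.8 and 65.4 with bezafibrate. Bezafibrate F_1 and M_1 were below all untreated libraries, and bezafibrate M_2 was above untreated F_2. Means were 67.1 ± 4.38 and 60.0 ± 5.29 FPKM, a log2 difference of -0.16 (SE 0.134), or -0.05 in TPM and -0.10 without bezafibrate F_1. Exons of Tapbp share 24.9% of their bases with Gm19412 on the opposite strand and 4.11% with Zbtb22 on its own strand, and the sources used here do not say whether counting used strand. Tap2 likewise shares 14.1% with Gm15821 on the opposite strand, so that reads of such partners cannot be told apart without strand.

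In the deposited scale, Calr and Pdia3 were the class I genes in which every bezafibrate library lay below every untreated library. Calr (ENSMUSG00000003814) encodes calreticulin, the lectin chaperone that retains heavy chains for loading. It had 149, 156 and 153 FPKM untreated and 124, 134 and 124 with bezafibrate. The lowest untreated value was 149 and the highest bezafibrate value 134. Means of 152.5 ± 3.77 and 127 ± 5.60 FPKM differed by -16.5%, or -0.26 (SE 0.123) on the log2 scale, and the log2 difference was -0.14 in TPM. Pdia3 (ENSMUSG00000027248) encodes ERp57, the disulfide isomerase bound to tapasin. It had 113, 113 and 132 FPKM untreated and 103, 103 and 102 with bezafibrate. The bezafibrate values were nearly equal, and untreated M_1 was the one high value. Means of 119 ± 11.1 and 102.5 ± 0.528 FPKM differed by -14.0%, a log2 difference of -0.21 (SE 0.130), or -0.10 in TPM and -0.14 without untreated M_1.

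Among all genes tested, the groups were separate with lower bezafibrate values in 4.13%, beside 2 of the 10 class I genes. That count of class I genes was 0 in TPM and 0 under quantile scaling, where 1.88% and 4.1% of all genes were separate in this direction. Without untreated F_2 it was 6, but with 2 libraries against 3 the share of all genes was also higher, at 8.05%. Calr had a log2 difference between -0.30 and -0.14 and Pdia3 between -0.25 and -0.09 over the 16 other settings, none of which gave an adjusted p under 0.05.

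The immunoproteasome subunits and Tap1 had the lowest FPKM of the class I genes. Psmb8 (ENSMUSG00000024338), the inducible chymotrypsin-like subunit, had 11.8, 11.9 and 10.5 FPKM untreated and 10.7, 10.1 and 12.6 with bezafibrate. The highest and the lowest value were both in the bezafibrate group. Means were 11.4 ± 0.782 and 11.1 ± 1.34 FPKM, a log2 difference of -0.03 (SE 0.140) that was 0.08 in TPM. Psmb9 (ENSMUSG00000096727), the inducible replacement of Psmb6, had 7.75, 5.35 and 5.11 FPKM untreated and 3.83, 6.18 and 7.56 with bezafibrate, from 252 to 570 reads. Its spread was the widest of the 10 genes, with a highest value 2.02 times the lowest. Untreated F_1 and bezafibrate M_2 were high and bezafibrate F_1 was low. The means of 6.07 ± 1.46 and 5.86 ± 1.89 FPKM gave -0.06 (SE 0.246), which was 0.04 in TPM, 0.10 without untreated F_1 and 0.17 without bezafibrate F_1.

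In the immunoproteasome, Psmb8, Psmb9 and Psmb10 take the places of the constitutive subunits Psmb5, Psmb6 and Psmb7. The inducible share of each pair was the FPKM of the inducible subunit as a percent of the pair. Psmb8 made up 22.6%, 27.1% and 22.4% of its pair untreated and 20.4%, 22.8% and 26.8% with bezafibrate. Psmb9 made up 18.6%, 14.3% and 14.3% untreated and 9.64%, 17.3% and 18.1% with bezafibrate. By this measure constitutive subunits held the larger share of both pairs in 6 of 6 libraries. For Psmb10 the order was the opposite, with 75.3%, 70.5% and 66.4% untreated and 64.9%, 75.2% and 74.4% with bezafibrate. The size of a share depends on the gene lengths behind the FPKM, which were 2736 bases for Psmb8 and 3659 for Psmb9. For Psmb9 this is close to the exon bases of all its isoforms together (3660). Shares under other lengths were not tested. Bezafibrate minus untreated was -0.728 percentage points for Psmb8, -0.729 for Psmb9 and 0.780 for Psmb10 (exact permutation p = 0.8, 0.8 and 1.0, and 1.0 for each after adjustment over the 3 pairs). Each sign turned with a library left out, to 0.746 for Psmb8 and 1.96 for Psmb9 without bezafibrate F_1 and to -1.39 for Psmb10 without untreated M_1.

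**Figure D3:**
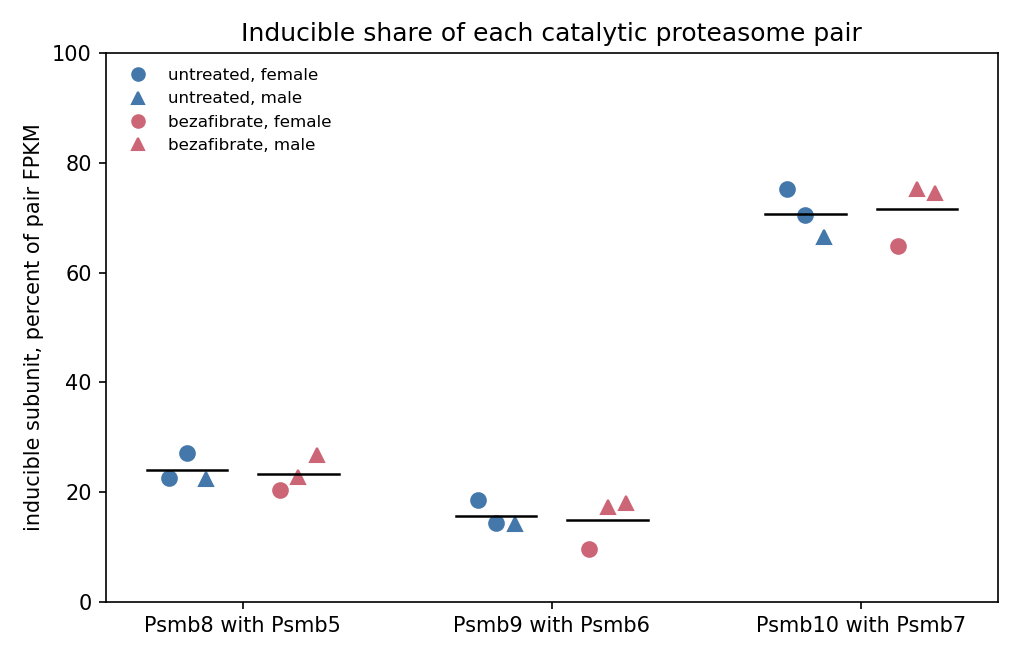
Share of the inducible subunit in each catalytic proteasome pair, in percent of the summed FPKM of the pair; each point is a library, colours and shapes mark chow and sex, and bars are means of 3 libraries. Psmb8 and Psmb9 lie between 9.64% and 27.1% and Psmb10 between 64.9% and 75.3%, with overlapping groups in each pair.

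Tap1 and Psmb9, Psmb8 and Tap2 also share exon bases with opposite-strand genes. Tap1 and Psmb9 overlap each other by 212 bases, which is 3.87% of the exon bases of Tap1 and 5.79% of those of Psmb9. Psmb8 shares 14.7% with Gm20496. Calr, B2m, H2-K1 and H2-D1 share none, and Pdia3 shares 0.573% with Catsper2.

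Across the 6 libraries, the heavy chains with B2m had another pattern than Tap2 and Psmb9. The mean of H2-K1, H2-D1 and B2m, each centred on its own mean of log2(FPKM + 1), was 0.17, -0.19 and 0.34 untreated and -0.05, -0.26 and -0.0031 with bezafibrate. It was highest in untreated M_1, which was also highest on the first principal component, and spread wider within the untreated group than between the groups. The mean of Tap2 and Psmb9 was 0.31, -0.09 and -0.15 untreated and -0.41, 0.11 and 0.22 with bezafibrate. These genes were lowest in bezafibrate F_1, the next highest on that component, and high in untreated F_1 and bezafibrate M_2. The mean of Calr and Pdia3, paired here because their groups were separate, was 0.06, 0.10 and 0.19 untreated and -0.13, -0.08 and -0.14 with bezafibrate. Over all 10 genes, the highest library was untreated M_1 for 5 genes, untreated F_1 for 3, untreated F_2 for Calr and bezafibrate M_2 for Psmb8. The lowest was bezafibrate F_1 for 4, bezafibrate M_1 for 3, bezafibrate M_2 for 2 and untreated F_2 for H2-K1. Without both untreated M_1 and bezafibrate F_1 the median log2 difference of the 10 genes was -0.06, but the untreated libraries are then all female and the bezafibrate libraries all male, so that sex and chow cannot be told apart there.

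**Figure D4:**
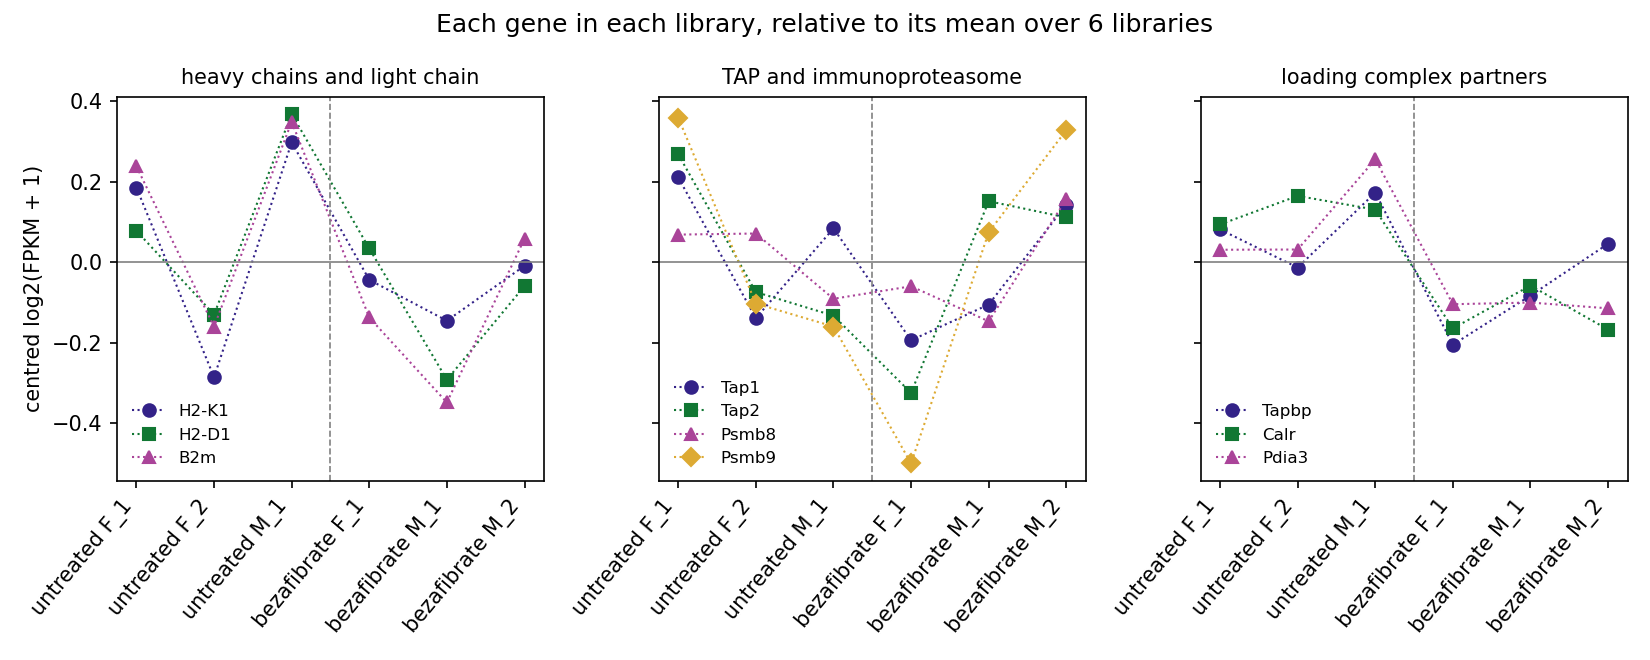
log2(FPKM + 1) of each class I gene minus its mean over the 6 libraries, in 3 panels by role; the dashed vertical line separates untreated from bezafibrate libraries, and dotted lines only join the points of a gene. Heavy chains and B2m are highest in untreated M_1 (mean 0.34), Tap2 and Psmb9 are lowest in bezafibrate F_1 (mean -0.41), and Calr and Pdia3 are above 0 in untreated and below 0 in bezafibrate libraries.

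Sex was uneven between the groups, so the difference was also taken within each sex, where it has no test. In females (2 untreated libraries and 1 bezafibrate library) 8 of the 10 genes were lower with bezafibrate, in males (1 and 2 libraries) 7, and in both sexes 5 (deposited scale): B2m, Tap1, Tapbp, Calr and Pdia3. Calr differed by -0.29 in females and -0.24 in males, and Tapbp by -0.24 and -0.19. H2-D1 differed by 0.06 in females and -0.54 in males, and H2-K1 by 0.01 and -0.37. Tap2 (-0.42 and 0.26) and Psmb9 (-0.63 and 0.36) had opposite signs the other way. Male minus female, with chow as a covariate, ranged from -0.05 for Psmb8 to 0.21 for Psmb9, with 9 genes above 0. limma called 0 of the 10 for sex and had 0 at an unadjusted p under 0.05, and voom called 0, against 0.0266% and 2.94% of all genes tested at these thresholds.

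Genes around the pathway, from lists drawn up for this purpose, are given by their counts. Of 123 listed, 120 were in the table, and 99 passed the filter on low values, of which 37 had a log2 difference above 0 and 62 below, with a median of -0.04, and in TPM 63 above and 36 below. None was called, and 4 of the 99 had an unadjusted limma p under 0.05, beside 4.19% of all genes tested. The closest relatives of the class I genes, 10 further class I heavy chains, were all below 0, at a median of -0.19, although in TPM 2 were above 0 and the median was -0.09. H2-Q4 had 87.1 ± 15.4 FPKM untreated and 75.3 ± 6.83 with bezafibrate, and H2-T23, which encodes the non-classical molecule Qa-1, had 78.4 ± 6.50 and 71.5 ± 5.99. H2-T24 had the lowest difference of this list, from 26.6, 24.3 and 24.3 FPKM untreated to 15.1, 22.5 and 15.1 with bezafibrate, a log2 difference of -0.51 (SE 0.178, adjusted p = 0.999). H2-T22 lay at the other end, at 17.4 ± 1.17 and 17.4 ± 1.31 FPKM. H2-Q2, H2-Bl, H2-T3 and H2-M2 were listed at 0 in each library. Of the 3 class I-like molecules measured, Fcgrt, the neonatal Fc receptor, which also pairs with B2m, had 215 ± 21.5 and 209.6 ± 26.0 FPKM, and Hfe and Mr1 differed by -0.08 and -0.02. All 3 were below 0 as deposited and above 0 in TPM.

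Peptide generation genes were divided, with 9 of 15 above 0 (13 in TPM) and a median of 0.01. Psme1, a proteasome activator subunit, had 37.8 ± 1.61 and 38.2 ± 5.51 FPKM, and Psmb5 had 36.2 ± 4.35 and 36.8 ± 4.44. The aminopeptidase Lap3 had the highest difference (0.37) and the proteasome maturation factor Pomp the lowest (-0.18). ER folding genes, the group to which Calr and Pdia3 are closest, had 14 of 18 below 0 and a median of -0.11, but 8 of 18 below 0 and a median of 0.0074 in TPM. Hspa5, the ER chaperone BiP, had 256, 243 and 256 FPKM untreated and 224, 187 and 207 with bezafibrate (log2 difference -0.29, SE 0.135, limma adjusted p = 0.999). In the deposited scale its groups were separate. So were those of 2 of the 18 genes in all, Hspa5 included, and of 4.13% of all genes tested, with lower bezafibrate values. P4hb, a disulfide isomerase, had 126 ± 14.9 and 117 ± 12.7 FPKM, and the glucosidase gene Mogs had the highest difference of the list (0.43).

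Regulators of class I transcription had 11 of 24 above 0 (17 in TPM) and a median of -0.02. Rela, an NF-kappaB subunit, had 115 ± 30.6 and 91.6 ± 37.6 FPKM, and the interferon receptor gene Ifnar2 24.1 ± 2.66 and 27.0 ± 1.19. Rfxap, a subunit of the RFX complex that binds MHC promoters, had 4.75, 6.36 and 7.25 FPKM untreated and 10.5, 10.8 and 9.71 with bezafibrate, a log2 difference of 0.68 (SE 0.166, limma adjusted p = 0.962). Its groups were separate with higher bezafibrate values, as those of 4.29% of all genes tested were. Nlrc5, the class I transactivator, differed by -0.20 (SE 0.218). Interferon-induced genes had 12 of 28 above 0 (17 in TPM) and a median of -0.04. In this list Ifi27 had 97.0 ± 4.85 and 88.5 ± 8.22 FPKM, and Bst2, which encodes tetherin, 90.2 ± 7.81 and 70.5 ± 3.05 (log2 difference -0.35, SE 0.130, adjusted p = 0.999). Gbp3 had the lowest difference (-0.37) and Iigp1 the highest (0.51). Of the class II presentation genes only Cd74, the invariant chain, passed the filter, at 1.36 ± 0.797 and 1.97 ± 0.879 FPKM.

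**Figure D5:**
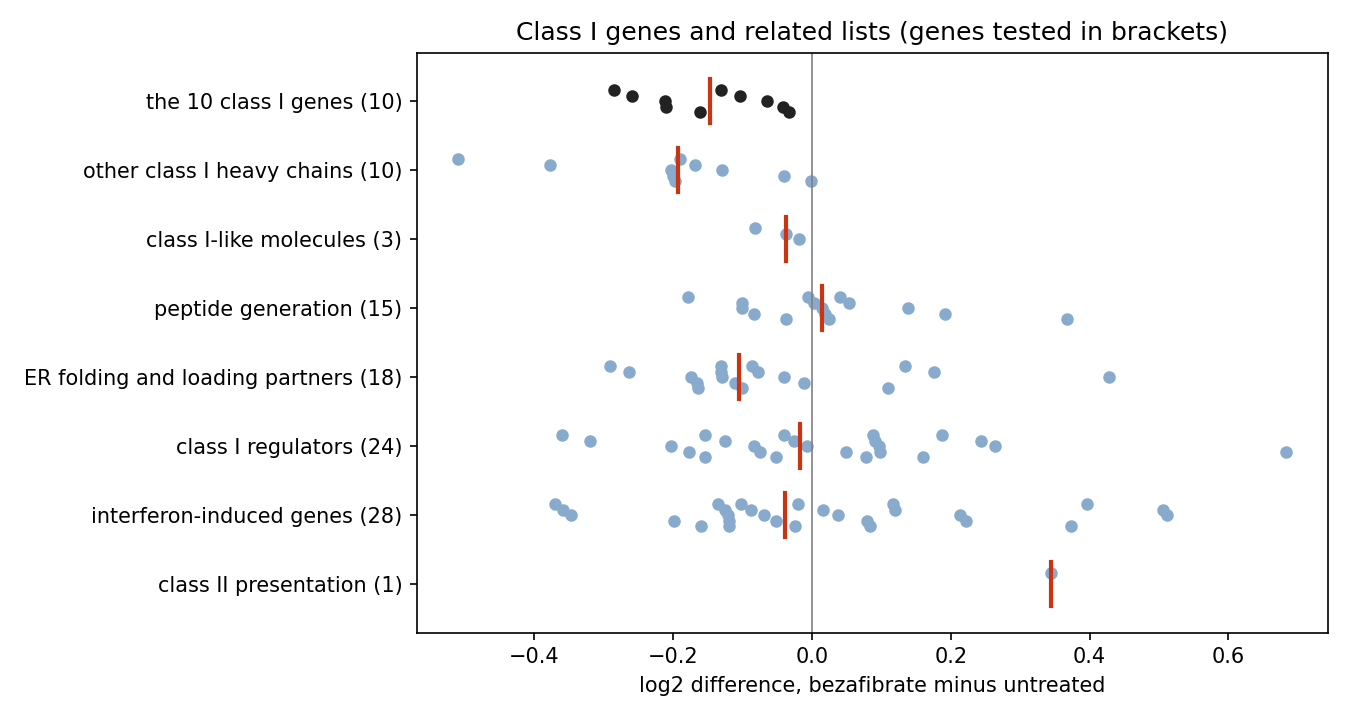
Difference in log2(FPKM + 1), bezafibrate minus untreated, for the 10 class I genes (black) and the genes tested of each related list (blue), with a red bar at the median of a list. The class I genes and the other heavy chains lie below 0 with medians of -0.15 and -0.19, where TPM would put 4 and 2 of them above 0, and the remaining lists of more than 1 gene have medians between -0.11 and 0.01.

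Class I genes are also expressed by other cells of the brain and blood. Endothelial markers summed to 5269 to 8126 FPKM untreated and 4522 to 7753 with bezafibrate. Of these, 7 of 7 had a difference below 0 (5 of 7 in TPM), with a median of -0.24 beside -0.15 for the class I genes. Microglial markers summed to 29.3 to 37.4 and 22.7 to 33.4 FPKM, with 2 of 7 tested above 0 and 5 below (3 and 4 in TPM), and none of the 10 listed was at 0 in each library. Leukocyte markers summed to at most 0.720 FPKM untreated and 1.37 with bezafibrate, and 7 of 14 were at 0 in each library, Cd3d, Cd4 and Ly6g among them. Pericyte markers summed to 111 to 190 and 104 to 150 FPKM, and oligodendrocyte markers to 65.3 to 104 and 60.9 to 65.9, with 4 of 4 below 0 in both lists and in both scales. Choroid plexus markers summed to 356 to 395 and 404 to 932 FPKM, with 4 of 4 above 0 in both scales. Astrocyte markers summed to 22.96, 13.2 and 18.5 FPKM untreated and to 8.38, 17.6 and 17.2 with bezafibrate, with 4 of 4 below 0 in both scales. They were highest in untreated F_1 and lowest in bezafibrate F_1, as Tap2 and Psmb9 were. Untreated M_1 was the next highest for astrocyte markers, but low for Tap2 and Psmb9 (mean -0.15). The interferon-induced genes listed above summed to 602, 503 and 467 FPKM untreated and to 425, 517 and 537 with bezafibrate. That sum had the same order over the 6 libraries as the mean of Tap2 and Psmb9. Erythrocyte markers summed to 40.9 to 272 and 48.8 to 135 FPKM. The part of these markers in the class I values was not tested.

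The genes tested whose pattern over the 6 libraries was most like the mean of the 7 MHC-encoded class I genes were Polr2h, Elp3, Jam3, Slc18b1 and Atp1b2. Their root mean square differences from it in centred log2(FPKM + 1) were 0.031 to 0.043, where the root mean square of the pattern itself was 0.128. Among its own contributors Tap1 lay closest (0.030) and Psmb9 farthest (0.209). H2-K1 (0.142), Tap2 (0.144) and H2-D1 (0.189) also differed from it by more than 0.128. Likeness to this mean is therefore not likeness to each of the 7 genes. For the mean of Calr and Pdia3 the most alike genes were Tesk2, Ano10, Acbd5, Gm11739 and Stx4a, at 0.030 to 0.037, and of the other class I genes Tapbp was closest (0.094).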

How the data were processed

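The authors deposited gene-level FPKM for the 6 libraries. Per the labels' protocols, SMART-Seq HT cDNA was made into Nextera XT libraries, sequenced as single reads of 75 bases, de-duplicated and mapped with Salmon; the submitters' processing notes name GRCm38. Not given in the sources used here are the Salmon version, the annotation, the use of strand and how the FPKM were scaled. In the table, the column of untreated M_1 is numbered differently from its title, and the sample's description was followed.

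FPKM times gene length gave whole reads for 100% of values within 0.01 reads. These reads give the depth and a limma-voom alternative. The main test was limma 3.58.1 (trend) in R 4.3.3 on log2(FPKM + 1), two-sided, with Benjamini-Hochberg adjustment over the 11277 genes that reached an FPKM of 1 in 3 or more libraries; this scale understates changes of low genes. Replicates are pools of separate animals. Shared names (F_1, M_1) across groups only name libraries. Exon overlaps and shared 75-base stretches come from GENCODE M21 on GRCm38, and promoters from RefSeq (GRCm38.p6).

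The class I genes and the lists were chosen with earlier results of these data known. Genes named from a list are the 2 of highest level and those of highest and lowest difference; Nlrc5 and marker genes were named outside this rule after values were seen. Alternatives were another pseudocount, filter, scaling, covariate, weights, count model and libraries left out.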

Additional observations from a re-analysis of the deposited data

How the results depend on the processing

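None of the 10 class I genes was called for bezafibrate in any of 16 other settings (adjusted p from 0.474 to 1.0) or for sex in any of 13 (from 0.270). For sex, the replicate block and the fit without both untreated M_1 and bezafibrate F_1 were not run, because sex cannot be estimated there. The count of all genes called, 1 as reported, was 0 with the replicate block and 0 by voom. It was 0 without both untreated M_1 and bezafibrate F_1, and 0 to 3 with a library left out (3 without bezafibrate F_1). With the replicate block the median of the 10 genes was -0.28. That block pairs libraries by name, although shared names only name libraries. Its estimate rests on the F_1 and M_1 libraries, since F_2 and M_2 occur in a single group each. The groups of 0 genes were separate in TPM and 0 under quantile scaling, against 2 as reported; leaving out a library gave 2 to 6, where 7.13% to 14.2% of all genes were separate with lower values, against 4.13% as reported. The signs of H2-D1, B2m, Tapbp, Calr and Pdia3 were the same in all 16 settings. H2-K1 was at 0.033 under quantile scaling and 0.039 with array weights, and Tap1 at 0.0016 in TPM and 0.0046 with array weights. With a library left out, H2-K1 was at -0.31 to -0.02, H2-D1 at -0.33 to -0.08, B2m at -0.44 to -0.18, Tap1 at -0.20 to -0.02, Tapbp at -0.22 to -0.10, Calr at -0.30 to -0.24 and Pdia3 at -0.25 to -0.14. Tap2 was at 0.074 in TPM, 0.0085 under quantile scaling, 0.080 with array weights, 0.066 by voom and 0.034 without both libraries, and from -0.13 to 0.11 with a library left out. Psmb8 was at 0.079 in TPM and 0.071 by voom, and from -0.12 to 0.032 with a library left out. Psmb9 was at 0.037 in TPM, 0.086 with array weights, 0.018 by voom and 0.073 without both libraries, and from -0.24 to 0.17 with a library left out. The share of Psmb8 in its pair differed by -2.47 to 0.810 percentage points with a library left out, that of Psmb9 by -2.28 to 1.96 (1.22 without both libraries) and that of Psmb10 by -1.39 to 4.08. The cause of these changes was not tested. With 3 libraries a group and a median SE of 0.191, the number of pools limits the precision, and of the 10 genes Psmb9 rests on the fewest reads.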
